A study of Mus musculus with 6 samples.

Results

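Lysosomal proton pump, protease and membrane genes were followed in haematopoietic stem cells (HSCs) that had kept or lost a histone label. The genes were those whose single symbol in the platform annotation names a subunit of the vacuolar ATPase (Atp6v0 or Atp6v1), a cathepsin with a letter name (Cts followed by a letter) or a lysosome-associated membrane protein (Lamp). This gave 41 of the 18193 genes with a probe set of their own: 8 of the V0 sector, 12 of the V1 sector, 18 cathepsins and 3 Lamp genes. Each gene was represented by the probe set with the highest mean over all 6 arrays, a choice that does not use the groups. Lamp3 shares its probe set with Ppid and is not analysed here. Tcirg1, which encodes the a3 subunit of the V0 sector, carries another symbol and is described below with the accessory genes.

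The vacuolar ATPase pumps protons into lysosomes and other acidic compartments. Its cytosolic V1 sector hydrolyses ATP and turns a rotor that drives protons through the membrane-bound V0 sector. Cathepsins are proteases, most of which work in this acidic lumen, and Lamp1 and Lamp2 coat the inner face of the lysosomal membrane. Many genes of the organelle carry E-box motifs that bind TFEB and related factors. In HSCs, lysosomes have been linked to the balance between quiescence and activation.

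The mice carried SCL-tTA, a transactivator (tTA-S2) expressed from the endogenous scl locus, and a tetracycline-responsive H2B-GFP fusion, so label was laid down in HSCs and progenitors. Both groups received doxycycline for 170 days, which stops synthesis of the fusion, and both were gated from bone marrow as Lin Neg, Sca1+, cKit+, CD150+, CD48 Neg and CD34 Neg. The 3 LRC (label-retaining) samples were GFP+ and the 3 non-LRC samples were GFP Neg. The comparison asks which genes differ between stem cells that kept the label and those without it. A GFP Neg cell may have diluted its label or never held one. The animals' age and the number of mice behind a sample are not given in the sources used here, and all groups share 1 transgenic line.

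The median log2 value of an array was 4.33 to 4.39, and the lowest correlation between 2 arrays, across probe sets, was 0.901 (LRC replicate 1 with non-LRC replicate 1). Spiked hybridization controls averaged 11.24 on LRC replicate 1 and 11.02 on LRC replicate 3, against 10.58 to 10.70 on the other arrays. All 8 measured stem cell markers lay above the array median on at least 1 array. Of 12 monocyte and macrophage markers, 7 lay below it on all arrays. The same was true of 5 of 8 osteoclast and 7 of 9 NK and T cell markers. It was true of 4 of 11 neutrophil markers. Of the 8 stem cell markers, 6 had a higher and 2 a lower mean in LRC, where 54.9% of all genes were higher. Hlf (LRC minus non-LRC 0.38, log2, SE 0.21) and Fgd5 (0.40, SE 0.25) had the smallest p of these 8. Hlf had separate groups with LRC above, as 4.71% of all genes did. These are bulk samples, so fewer cells of a type and less RNA per cell cannot be told apart.

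Stretches upstream of 3 of the genes are shown because they carry the palindromic E-box CACGTG (capitals), the core of the motif that TFEB-type factors bind. The sequences are from RefSeq (GRCm38.p6), 5′ to 3′ on the strand of the gene, and end before its annotated start.
Lamp1, chr8:13159080-13159160, plus strand: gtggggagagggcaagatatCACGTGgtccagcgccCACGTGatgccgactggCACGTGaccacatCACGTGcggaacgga
Ctsd, chr7:142387900-142387945, minus strand: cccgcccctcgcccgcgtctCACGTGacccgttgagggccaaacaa
Ctsf, chr19:4855066-4855111, plus strand: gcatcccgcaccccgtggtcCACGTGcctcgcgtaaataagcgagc
In Lamp1, 4 copies stood within the last 61 bases before the start. In Ctsd the copy shown began 98 bases before the start, and in Ctsf 79 bases before it.

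Promoter windows, 250 bases before to 50 after a start, were found for 31 of the 41 genes. CACGTG, which reads the same on both strands, was present in 9 of these 31 genes (29.0%) and in 8.09% of the 27025 genes with a window. The 9 were Atp6v0b, Atp6v0d1, Atp6v0e, Atp6v1a, Ctsa, Ctsd, Ctsf, Ctsl and Lamp1. The longer palindrome TCACGTGA, which contains the shorter one, was present in 5 of the 31 (16.1%) against 1.12% of all genes. The 9 genes with the motif had a median LRC minus non-LRC difference of 0.04 (log2), with 5 higher and 4 lower in LRC. The 22 with a window and no CACGTG had a median of 0.10, and 10 of them lay below the median of every array. Of the 34 windows of these 31 genes, 21 stood at the outermost start of the gene in the RefSeq table, and so did the windows of 5 of the 9 genes with the motif. Those of Ctsa, Ctsl, Atp6v0b and Atp6v1a stood at a start inside the bounds given there. A motif match is a description of sequence and shows no binding.

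No gene of the pump, the cathepsins or the Lamp group passed the test. Limma, with Benjamini-Hochberg adjustment over all 45037 probe sets, called 0 of the 41 genes and 0 probe sets in all (0% called), and every one of the 41 had an adjusted p of at least 0.998. On simulated data of this size the same test recovered 0% of changes of 1, 30% of changes of 2 and 82% of changes of 4 on the log2 scale. Mean expression was higher in LRC for 25 genes (61.0%) and lower for 16, where 54.9% of all 18193 genes were higher. The median difference was 0.08 against 0.03 over all genes. At an unadjusted p under 0.05 there was 1 gene, Atp6v1g2, where 3.75% of all genes were past that mark (1.73% higher and 2.02% lower in LRC). The 3 LRC and 3 non-LRC values did not overlap for 5 of the 41 genes, where 8.32% of all genes had separate groups. Ctsb, Ctsq and Atp6v0e2 were the 3 with LRC above (4.71% of all genes), and Atp6v1g2 and Atp6v1e1 were the 2 with LRC below (3.62% of all genes).

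**Figure D1:**
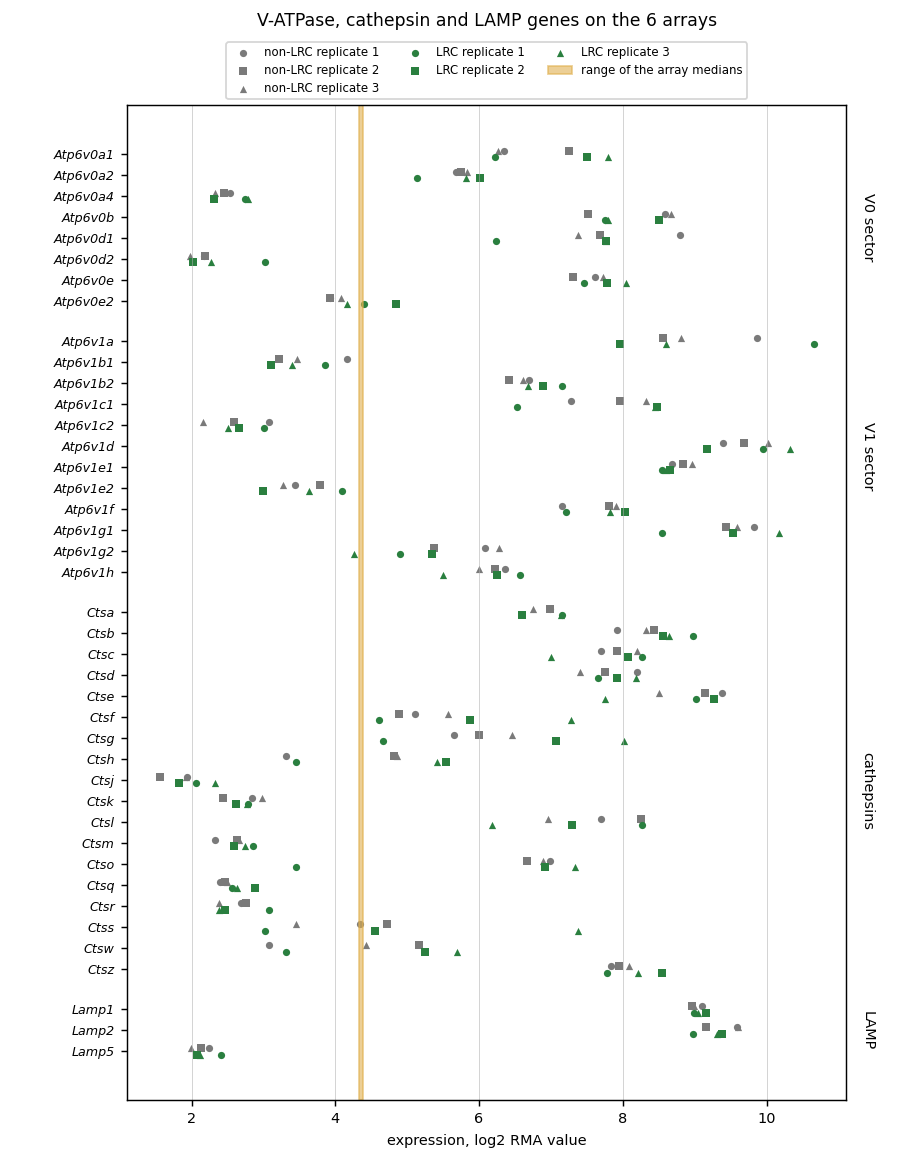
Log2 expression of the 41 genes (horizontal axis) on each array, by gene and class (vertical axis). Grey symbols are non-LRC and green symbols LRC arrays, with circle, square and triangle for replicates 1, 2 and 3; the yellow band spans the array medians, 4.33 to 4.39. For most genes the grey and green symbols intermix, and 11 genes lie left of the band on every array.

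In the V0 sector, which forms the proton channel, 5 of 8 genes had a higher mean in LRC and the median difference was 0.19 (log2). Atp6v0e2, an isoform of the small membrane subunit e, read 3.93, 3.92 and 4.07 on non-LRC replicates 1, 2 and 3 and 4.40, 4.84 and 4.17 on LRC replicates 1, 2 and 3, the order used throughout. All LRC values lay above all non-LRC values, although 4 of the 6 values were below the array median. Its difference was 0.49 (SE 0.23, unadjusted p = 0.0718, limma), a 1.41-fold higher mean in LRC, and it did not pass. The ubiquitous isoform Atp6v0e read 7.31 to 7.73 on non-LRC arrays and 7.46 to 8.05 on LRC arrays, with overlapping groups (difference 0.21, SE 0.23).

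Atp6v0d1, the subunit that joins the central rotor to the membrane ring, read 8.80, 7.68 and 7.38 on non-LRC arrays and 6.23, 7.77 and 7.76 on LRC arrays. The lowest and the highest value came from replicate 1 of each group, and the other 4 arrays lay within 7.38 to 7.77. The difference of -0.70 (SE 0.56) thus became -0.19 without LRC replicate 1. Atp6v0a1, an isoform of the large subunit a that lines the proton path, read 6.35, 7.24 and 6.26 on non-LRC arrays and 6.22, 7.50 and 7.79 on LRC arrays. LRC replicates 2 and 3 lay above every non-LRC value and LRC replicate 1 below them. Its difference of 0.55 (SE 0.48) did not pass, and the sign was shared by all 3 further probe sets.

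The remaining V0 genes gave overlapping groups. Atp6v0b, which encodes the c'' subunit of the membrane ring, differed by -0.24 (SE 0.39) and Atp6v0a2, a Golgi and endosomal isoform of subunit a, by -0.09 (SE 0.27). Atp6v0a4, the a isoform of kidney intercalated cells, and Atp6v0d2, the d isoform of osteoclasts, lay below the median of all arrays. Atp6v0d2 read 1.98 to 2.18 on non-LRC arrays and 3.02, 2.02 and 2.28 on LRC arrays. Of the osteoclast markers, Nfatc1 (difference 1.47, SE 0.62) and Calcr (0.31, SE 0.19) had the smallest p, and Calcr lay below the median of every array. Over the 8 osteoclast markers, 5 had a higher and 3 a lower mean in LRC, and the median difference was 0.14. Groups were separate for 0 of the 8, where they were for 8.32% of all genes. The mean of the 8 markers was 4.15 to 4.42 in LRC and 3.89 to 4.38 in non-LRC. The part of the markers in these values was not tested.

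The V1 sector, which hydrolyses ATP, held the largest difference among the 41 probe sets used for the genes. Atp6v1g2, a stalk subunit isoform best known from neurons, read 6.09, 5.37 and 6.27 on non-LRC arrays and 4.90, 5.35 and 4.27 on LRC arrays. The groups were separate, but non-LRC replicate 2 and LRC replicate 2 differed by little. The LRC mean of 4.84 ± 0.55 stood against 5.91 ± 0.47 for non-LRC (SD, n = 3 each). They differed by -1.07 (SE 0.37), and the adjusted p was 0.998 (limma). Its 95% interval ran from -1.96 to -0.18 before any adjustment, and 1 probe set measures the gene. With single arrays left out its unadjusted p (limma) was 0.0138 to 0.0822, above 0.05 without non-LRC replicate 1, non-LRC replicate 3, LRC replicate 1 or LRC replicate 3. The widely expressed isoform of this subunit, Atp6v1g1, read 9.43 to 9.82 on non-LRC arrays and 8.54, 9.54 and 10.17 on LRC arrays, with LRC on both sides of non-LRC.

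Atp6v1e1, another stalk subunit, read 8.69, 8.83 and 8.96 on non-LRC arrays and 8.54, 8.66 and 8.61 on LRC arrays. All LRC values were lower, within a narrow range, and the difference was -0.23 (SE 0.18, unadjusted p = 0.242), a 1.17-fold lower mean. Its 3 other probe sets also had lower means in LRC, by -0.40 to -0.17. Atp6v1b2, the ubiquitous ATP-binding B subunit, read 6.70, 6.41 and 6.61 on non-LRC arrays and 7.16, 6.89 and 6.68 on LRC arrays. The groups overlapped by 1 LRC value, the difference was 0.33 (SE 0.21), and the sign was shared by all 3 further probe sets.

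The catalytic A subunit, Atp6v1a, varied more within the groups than between them. It read 9.87, 8.55 and 8.81 on non-LRC arrays and 10.65, 7.96 and 8.61 on LRC arrays. Replicate 1 was the highest array of either group, and the 95% interval of the difference ran from -1.79 to 1.78. Atp6v1c1, which holds the stalk to the motor and was singled out after its values were seen, read 7.28, 7.97 and 8.33 on non-LRC arrays and 6.53, 8.48 and 8.45 on LRC arrays. LRC replicate 1 was the lowest array for each of its 3 probe sets. Without it the difference changed sign, from -0.04 to 0.61.

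The rotor subunits Atp6v1d and Atp6v1f differed by 0.12 and 0.06 with overlapping groups. The regulatory subunit Atp6v1h differed by -0.09 (SE 0.31) on the probe set used, also with overlap. Its 2 further probe sets were separate with LRC above, by 1.54 (SE 0.80, unadjusted p = 0.0994, limma) and 0.12 (SE 0.16). The first of them read 5.29, 2.78 and 5.26 on non-LRC arrays and 7.002, 5.35 and 5.58 on LRC arrays. The second read 1.91 to 1.94 on non-LRC arrays and 2.00 to 2.10 on LRC arrays, below the median of every array. Of the tissue-restricted isoforms, Atp6v1b1, Atp6v1c2 and Atp6v1e2 lay below the median of every array and differed by -0.16 to 0.12. Over the 12 V1 genes, 5 had a higher and 7 a lower mean in LRC, and the median difference was -0.02.

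Cathepsins had a higher mean in LRC for 13 of 18 genes (72.2%), where 54.9% of all genes did. Their median difference was 0.21, against 0.03 over all genes. Ctsb, a cysteine protease that cuts within and from the end of chains, read 7.92, 8.44 and 8.33 on non-LRC arrays and 8.97, 8.56 and 8.64 on LRC arrays. All LRC values were higher, and the mean was 8.72 ± 0.22 in LRC against 8.23 ± 0.27 in non-LRC (SD, n = 3 each). The difference was 0.50 (SE 0.23, unadjusted p = 0.0696, adjusted p = 0.998, limma), a 1.41-fold higher mean that did not pass. A second probe set of Ctsb was separate in the opposite direction, with 6.48, 6.64 and 6.54 on non-LRC arrays and 5.49, 6.19 and 5.99 on LRC arrays. That difference was -0.67 (SE 0.24, unadjusted p = 0.0282, adjusted p = 0.998, limma). Of the 4 other probe sets of Ctsb, 2 had the sign of the first.

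Ctsd, the main aspartic protease of lysosomes, read 8.19, 7.75 and 7.41 on non-LRC arrays and 7.65, 7.92 and 8.18 on LRC arrays. The groups covered the same range, and the 95% interval of the difference, -0.52 to 0.79, did not reach a 2-fold change. Ctsa, a serine carboxypeptidase that also protects lysosomal glycosidases, read 6.99, 6.99 and 6.76 on non-LRC arrays and 7.15, 6.60 and 7.13 on LRC arrays, with an interval of -0.50 to 0.60. Ctsz, a carboxypeptidase, read 7.83, 7.95 and 8.09 on non-LRC arrays and 7.78, 8.55 and 8.21 on LRC arrays. LRC replicate 1 was the lowest of its 6 values and the other LRC arrays the highest.

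Ctsl, a broad cysteine endopeptidase, spread widely in both groups. It read 7.70, 8.25 and 6.97 on non-LRC arrays and 8.27, 7.29 and 6.18 on LRC arrays. LRC held both the lowest and the highest value, and the difference was -0.39 (SE 0.59), or 0.14 without LRC replicate 3. Ctsc, which activates granule serine proteases, differed by -0.17 (SE 0.37). Ctse, an aspartic protease of non-lysosomal endosomes, differed by -0.33 (SE 0.46), and a further probe set gave the opposite sign.

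Ctsg, a serine protease of neutrophil granules, read 5.66, 5.996 and 6.45 on non-LRC arrays and 4.67, 7.07 and 8.02 on LRC arrays. LRC replicate 1 lay below and the other LRC arrays above all non-LRC values. The difference was 0.55 (SE 0.83), or -0.17 without LRC replicate 3. Mpo, another neutrophil granule gene, was added afterwards as a reference. It was also lowest on LRC replicate 1 (4.03) and highest on LRC replicate 3 (9.20), with non-LRC at 7.57 to 9.02. The mean of the 11 measured neutrophil markers was 4.68 to 5.04 in LRC and 4.74 to 5.68 in non-LRC. That mean was lowest on LRC replicate 1 but highest on non-LRC replicate 1 (5.68), with 5.04 on LRC replicate 3. Over the 11 markers, 5 had a higher and 6 a lower mean in LRC. Their part in the Ctsg values was not tested. The 2 neutrophil markers of smallest p were S100a8 (difference -1.42, SE 0.91) and Fcnb (-0.25, SE 0.24).

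Ctss, which trims the invariant chain of MHC class II in antigen-presenting cells, read 4.35, 4.72 and 3.45 on non-LRC arrays and 3.02, 4.55 and 7.38 on LRC arrays. Only LRC replicate 3 stood clear of the other 5 arrays. The difference of 0.81 (SE 1.07) became -0.39 without it. Cd68, a macrophage lysosomal protein, and Csf1r were added afterwards as references. Cd68 was highest on LRC replicate 3, at 6.21 against 4.50 to 5.37 elsewhere. Csf1r, which defines the lineage, was at 4.03 to 4.47 on all 6 arrays and at 4.47 on LRC replicate 3. The 12 monocyte and macrophage markers averaged 4.15 to 4.34 in LRC and 4.09 to 4.32 in non-LRC. Lyz1 (difference -0.65, SE 0.52) and Itgam (0.23, SE 0.22) had the smallest p among them. Where 54.9% of all genes had a higher mean in LRC, 8 of these 12 markers did and 4 had a lower one. Their part in the Ctss values was not tested. Ctsw, a cathepsin of NK and cytotoxic T cells, read 3.08 to 5.17 on non-LRC arrays and 3.31 to 5.70 on LRC arrays, and the 9 NK and T cell markers averaged 3.21 to 3.58 in LRC and 3.22 to 3.64 in non-LRC. Cd3d (difference 0.32, SE 0.24) and Nkg7 (-0.59, SE 0.67) had the smallest p of these 9. Of the 9, 7 had a higher and 2 a lower mean in LRC, where 54.9% of all genes were higher.

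Ctsf and Ctsh, 2 further cysteine cathepsins, and Ctso also spread widely. Ctsf read 5.12, 4.89 and 5.57 on non-LRC arrays and 4.61, 5.88 and 7.28 on LRC arrays. Ctso, singled out after its values were seen, read 6.99, 6.66 and 6.89 on non-LRC arrays and 3.45, 6.91 and 7.34 on LRC arrays. One array, LRC replicate 1, thus set its difference of -0.94 (SE 1.00), which was 0.28 without that array. Its second probe set was separate the other way, with 2.88, 2.56 and 2.77 on non-LRC arrays and 3.01, 3.57 and 3.58 on LRC arrays. That difference was 0.65 (SE 0.23, unadjusted p = 0.0302, adjusted p = 0.998, limma), below the median of every array.

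Ctsj, Ctsm, Ctsq and Ctsr belong to a rodent cluster of placental cathepsins on chromosome 13 and are close paralogs, so their probe sets may read more than 1 of them. With Ctsk, the collagen-degrading cathepsin of osteoclasts, they made up the 5 cathepsins below the median of every array. Ctsq read 2.40, 2.47 and 2.49 on non-LRC arrays and 2.56, 2.88 and 2.64 on LRC arrays. The groups were separate, by a difference of 0.24 (SE 0.18) at the dim end of the scale. Ctsj read 1.94, 1.56 and 1.92 on non-LRC arrays and 2.06, 1.82 and 2.32 on LRC arrays, with overlap. Leaving these 5 out, 9 of 13 cathepsins had a higher mean in LRC and the median difference was 0.22.

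Lamp1, a major glycoprotein of the lysosomal membrane, read 9.11, 8.97 and 8.99 on non-LRC arrays and 8.98, 9.15 and 9.05 on LRC arrays. The groups overlapped throughout, and the 95% interval of the difference was -0.37 to 0.45. Lamp2, which also serves as the receptor of chaperone-mediated autophagy in 1 of its isoforms, read 9.58, 9.15 and 9.60 on non-LRC arrays and 8.97, 9.38 and 9.31 on LRC arrays. LRC replicate 1 was the lowest, the difference was -0.22 (SE 0.22), and 2 of 3 further probe sets shared the sign. The brightest further probe set was separate, at 8.67 to 8.75 on non-LRC arrays and 8.22 to 8.58 on LRC arrays. Its difference was -0.34 (SE 0.18) and did not pass. Lamp5, a Lamp protein of neurons and plasmacytoid dendritic cells, read 2.24, 2.13 and 1.99 on non-LRC arrays and 2.41, 2.08 and 2.12 on LRC arrays, below the median of every array.

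**Figure D2:**
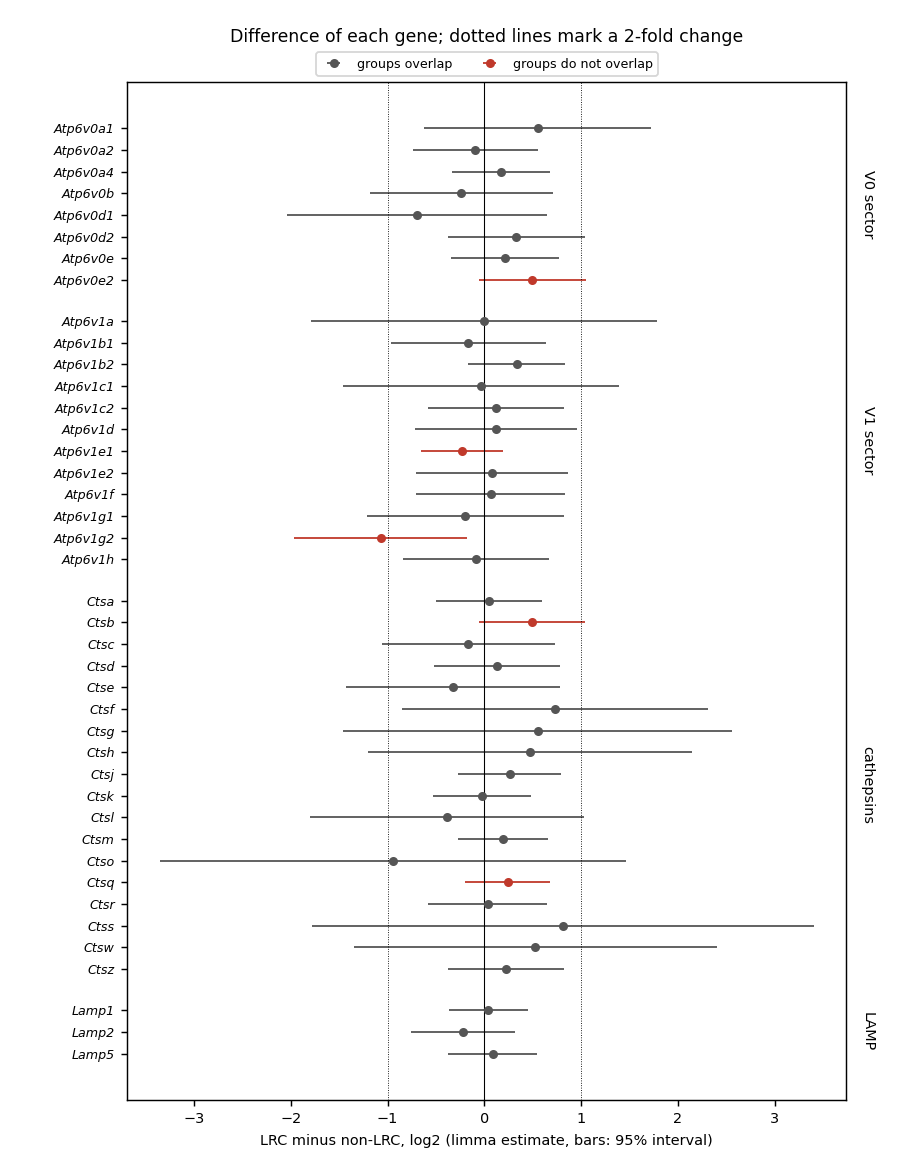
Difference LRC minus non-LRC (log2, horizontal axis) for each of the 41 genes by class, as limma's estimate with its unadjusted 95% interval. Red marks the 5 genes whose groups do not overlap, and the interval of Atp6v1g2 alone excludes 0. For 22 genes the interval lies within the dotted lines of a 2-fold change.

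The precision differed by gene. For 22 of the 41 genes (53.7%) the unadjusted 95% interval lay within a 2-fold change either way, as it did for 56.3% of all genes. These 22 included all 3 Lamp genes, 8 V1, 3 V0 and 8 cathepsin genes. Among the 30 genes above the array median on at least 1 array, 12 had such an interval. For the other genes a 2-fold difference was not excluded by 3 arrays a group. The SD of a gene over replicates was larger in LRC for 32 of 41 genes (78.0%), against 62.8% of all genes.

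The array of LRC replicate 1 held many of the extreme values. It gave the lowest of the 6 values for 12 of the 41 genes (29.3%), against 18.3% of all genes, and the highest for another 12 (29.3%), against 31.6% of all genes. All 12 genes with their lowest value there were above the array median on at least 1 array. Non-LRC replicate 2 held the highest value of 0 of the 41 genes, against 9.87% of all genes. The mean over cathepsins was 5.16 on LRC replicate 1, below every non-LRC array (5.36 to 5.58). On LRC replicates 2 and 3 it was 5.77 and 5.95, above them. V0 genes had the same order, at 5.37 against 5.51 to 5.71 and then 5.84 and 5.81. V1 genes did not: they averaged 6.75 on LRC replicate 1, within the non-LRC range of 6.65 to 6.84, and 6.59 and 6.66 on LRC replicates 2 and 3. Lamp genes averaged 6.79 to 6.87 in LRC, which lay inside the span of the non-LRC arrays, 6.75 to 6.98.

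Without LRC replicate 1, 13 of the 41 genes had separate groups, where 17.1% of all genes did. Of these, 11 of the 41 genes (26.8%) had both LRC values above all non-LRC values, where 8.42% of all genes did, and 2 (4.88%) had them below, where 8.71% did. The 11 were the cathepsins Ctsb, Ctsf, Ctsg, Ctsh, Ctsq, Ctsw and Ctsz, the V0 genes Atp6v0a1, Atp6v0e and Atp6v0e2, and Atp6v1c1. The 2 below were Atp6v1g2 and Atp6v1e1. This array was chosen because it held many of the lowest values, and leaving out any array can only keep or add separate groups, so the count with LRC above is a description and no support for a difference. Leaving out LRC replicate 2 gave 10 of the 41 genes separate, where 26.7% of all genes were, and leaving out LRC replicate 3 gave 6 (15.8% of all genes). Leaving out non-LRC replicates 1, 2 and 3 gave 6, 8 and 5 (17.6%, 16.3% and 15.8% of all genes). By limma without LRC replicate 1, 3 genes were at an unadjusted p under 0.05, where 3.47% of all genes were: Ctsg (difference 1.51), Ctsf (1.39) and Atp6v0a1 (1.03). Each had an adjusted p of 1 in limma and did not pass. In the same 5 arrays, 2 of 11 neutrophil markers had separate groups, both with LRC below: S100a8 (difference -1.78) and Fcnb (-0.46). Of the 12 monocyte and macrophage and the 9 NK and T cell markers, 0 were separate. Differences ran from -0.29 (Mrc1) to 0.64 (Cd68) for monocyte and macrophage markers and from -0.66 (Nkg7) to 0.35 (Cd3d) for NK and T cell markers. The overlapping neutrophil markers ran from -0.67 (S100a9) to 0.57 (Mpo). The part of these markers in the values of the 11 genes was not tested. LRC replicates 2 and 3 also differ in their hybridization controls (10.60 and 11.02), whose part in these 5 arrays was not tested. A fit with the control level as a covariate was run on all arrays only.

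**Figure D3:**
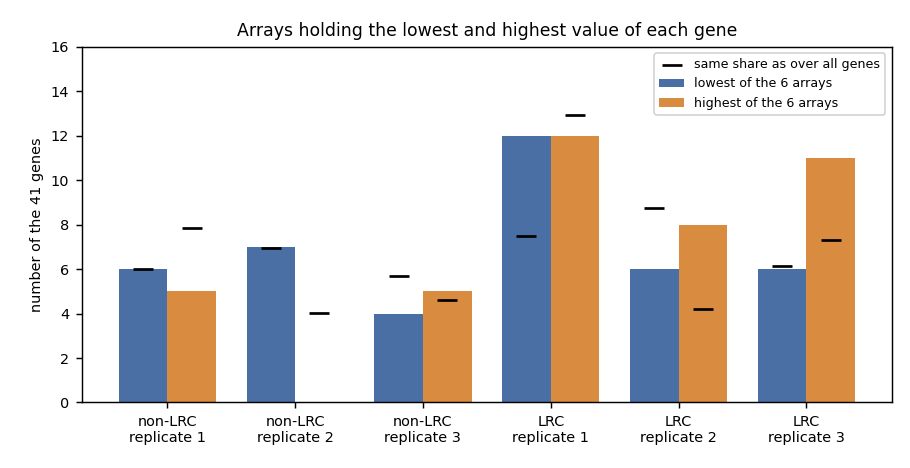
Number of the 41 genes (vertical axis) for which each array (horizontal axis) held the lowest (blue) or highest (orange) of the 6 values; black ticks give the number that the share over all genes would yield. LRC replicate 1 stands out with 12 lowest values and also has 12 highest, and LRC replicate 3 has 11 highest.

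Of the 41 genes, 21 had more than 1 probe set. All other probe sets had the sign of the chosen one in 12 genes, some did in 5 and none did in 4. The 4 were Atp6v1h, Ctsa, Ctse and Ctso. Both probe sets of Ctsh had higher means in LRC, by 0.47 and 1.12, as did all 4 of Atp6v0a1 and of Atp6v1b2. All 3 probe sets of Atp6v1c1 and all 4 of Atp6v1e1 had lower means in LRC.

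**Figure D4:**
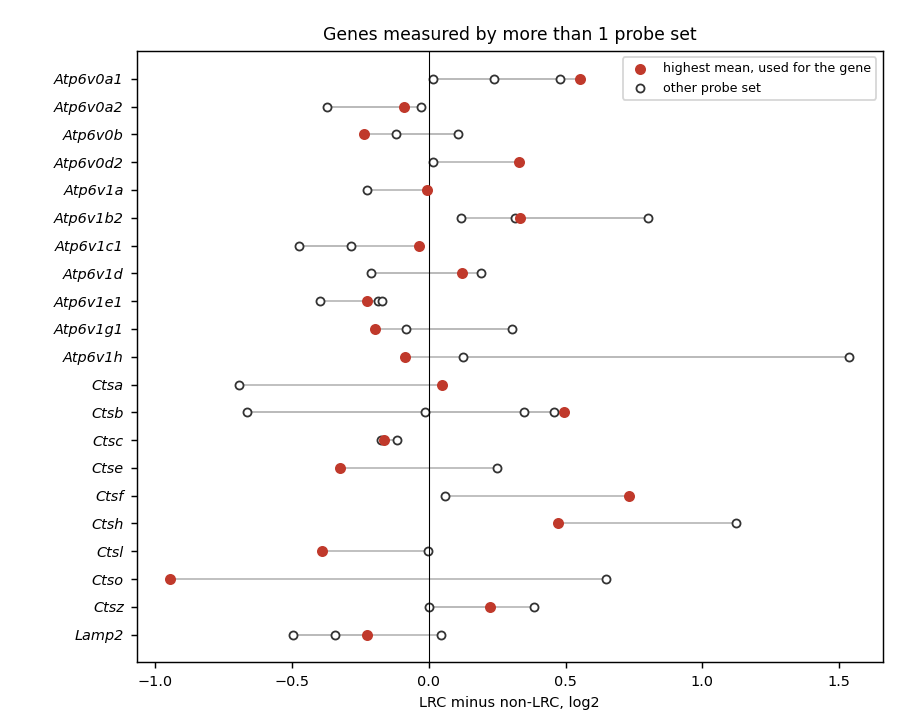
Difference LRC minus non-LRC (log2, horizontal axis) for each probe set of the 21 genes with more than 1 (vertical axis). Red points are the probe sets used for the gene, and open circles its others. The points of Ctsb run from -0.67 to 0.50, and those of Atp6v1e1 all lie left of 0.

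Other lysosomal genes, in lists by role, gave 0 that passed the adjusted threshold. Accessory and assembly genes of the pump had 6 of 14 measured genes higher and 8 lower in LRC, with a median difference of -0.02. Tcirg1, the a3 subunit, differed by 0.19 (SE 0.19), and the accessory subunit Atp6ap2 by -0.01 (SE 0.20). Dmxl2, which takes part in assembly of the pump, read 6.91 to 7.11 on non-LRC arrays and 7.13 to 7.77 on LRC arrays, with separate groups. Tldc1, a TLDc domain gene, differed by 1.01 (SE 0.51). Cathepsin inhibitors had 4 of 10 genes higher and a median difference of -0.05. Cstb, cystatin B, differed by 0.61 (SE 0.30), and Serpinb1a, an inhibitor of neutrophil serine proteases, by -1.24 (SE 0.65).

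Lysosomal hydrolases and their activators had 28 of 42 genes (66.7%) higher in LRC, where 54.9% of all genes were, and a median difference of 0.18. At an unadjusted p under 0.05 there were 2 of 42 genes, where 3.75% of all genes were past that mark. Manba, beta-mannosidase, read 7.40, 6.37 and 6.86 on non-LRC arrays and 7.75, 7.35 and 7.92 on LRC arrays, with overlap by 1 value. Dpp7, a dipeptidyl peptidase, read 5.17 to 5.25 on non-LRC arrays and 5.89, 6.12 and 5.38 on LRC arrays, with separate groups and the same sign in both further probe sets.

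Lysosomal membrane proteins and transporters had 12 of 29 genes higher and 17 lower, and 5 of 29 at an unadjusted p under 0.05, where 3.75% of all genes were. Scarb2, the membrane protein that carries glucocerebrosidase to lysosomes, read 7.59, 8.17 and 8.08 on non-LRC arrays and 7.38, 7.15 and 7.06 on LRC arrays. All LRC values were lower (difference -0.75, SE 0.23, unadjusted p = 0.0156, adjusted p = 0.998, limma), although a further probe set gave the opposite sign. Sidt2, a lysosomal membrane protein of nucleic acid uptake, differed by 0.63 (SE 0.22), with separate groups. The other 3 of the 5 were Mcoln1 and Cln3 with LRC above non-LRC and Tmem175 with LRC below, named after their values were seen.

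Genes that tag and sort hydrolases had 3 of 11 higher and 8 lower in LRC, where 54.9% of all genes were higher. Their median difference was -0.19. At an unadjusted p under 0.05 (limma) there were 2 of 11, where 3.75% of all genes were. Groups were separate for 3 of 11, where they were for 8.32% of all genes. Lman1, a cargo receptor of early secretion, differed by -0.68 (SE 0.25), and 2 of 4 further probe sets shared the sign. Gga2, an adaptor that sorts hydrolase receptors, read 7.61, 6.59 and 6.71 on non-LRC arrays and 4.19, 6.34 and 5.94 on LRC arrays. All its LRC values were lower, with LRC replicate 1 lowest by far. In the list of TFEB family and lysosomal mTORC1 control genes 11 of 21 were higher and the median difference was 0.08. Of these 21, 1 was at an unadjusted p under 0.05 (limma) and 2 had separate groups. Rragc, a Rag GTPase that recruits mTORC1 to lysosomes, read 7.90, 7.44 and 7.64 on non-LRC arrays and 6.35, 7.13 and 5.42 on LRC arrays. All its LRC values were lower (difference -1.36, SE 0.44, unadjusted p = 0.0199, adjusted p = 0.998, limma). Rragd, of the same family, differed by 0.45 (SE 0.20), with separate groups and LRC above. Tfeb itself read 5.63 to 5.88 on non-LRC arrays and 5.12 to 5.86 on LRC arrays, with overlap.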

How the data were processed

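The authors deposited a log2 expression level for each probe set on each array, computed with RMA per the submitters' processing notes. RMA corrects background, equalizes array distributions and summarizes probes; no version of it is stated, and base 2 was read from the range of the values (1.22 to 13.88 over the probe sets tested). RNA went through 2 rounds of NuGEN WT-Ovation Pico amplification and Affymetrix biotin labelling, per the labels' protocols. Equalized distributions hide any change of total RNA per cell, and the number of arrays limits precision.

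Of 45101 probe sets, 64 controls were left out. Symbols came from the platform annotation: 34945 probe sets had 1 symbol, 932 several and 9160 none. Symbols of all 41 genes matched the current RefSeq table. The test of LRC against non-LRC (3 samples each) was lmFit and eBayes of limma 3.58.1, run under R 4.3.3 with no covariate and with Benjamini-Hochberg adjustment over all probe sets and a threshold of 0.05; exact permutation of 3 against 3 cannot go below p = 0.1. The fit was tested on simulated data (45037 probe sets, 50 changed by each size): it recovered 0%, 30%, 60% and 82% of log2 changes of 1, 2, 3 and 4, with 3 false calls.

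The genes, classes, lists and naming rule were chosen with earlier results of these data known. Values on every array are printed for genes with separate groups, for the smallest p-values of each class and for 14 listed symbols, of which Atp6v0c had no probe set of its own and is not analysed here. For the other lysosomal lists and the marker lists described, the 2 genes of smallest p are named, with a few reference genes added afterwards. Ctso and Atp6v1c1 were singled out after their values were seen. Alternatives were other normalization, filtering, moderation, array weights, a replicate block, a covariate, probe set choice and leaving out arrays. The labels call the 3 samples of a group independent biological replicates.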

Additional observations from a re-analysis of the deposited data

How the results depend on the processing

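No alternative with an adjusted p called any of the 41 genes or any probe set. The count was 0 with renormalization, median centring, the 40th percentile filter, array weights, the replicate block and robust moderation with a trend. It was also 0 with the control covariate, a threshold of 0.1, other probe set choices (the 41 genes) and each array left out. An unadjusted p under 0.05 with a 2-fold change gave 774 probe sets and 1 gene, Atp6v1g2. With the replicate block 0 genes had an unadjusted p under 0.05, against 1 without it. That count was also 0 without non-LRC replicate 1 or non-LRC replicate 3, and 3 without LRC replicate 1. It was 2 with the probe set of median level and 2 under the control covariate. The 5 genes with separate groups became 13 without LRC replicate 1, 10 without LRC replicate 2 and 8 without non-LRC replicate 2. Of all genes, 17.1%, 26.7% and 16.3% had separate groups in these cases, against 8.32% on all arrays. Without non-LRC replicate 1, non-LRC replicate 3 and LRC replicate 3 there were 6, 5 and 6 (17.6%, 15.8% and 15.8% of all genes). Same-numbered samples had deviation correlations of 0.08, 0.14 and 0.08, so the numbers were not taken to pair samples, although every sample correlated best with its own number. The smallest adjusted p of any of 21 named genes in any alternative was 0.629.

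The median difference of V0 genes was 0.08 to 0.26 and that of cathepsins 0.09 to 0.27 with single arrays left out. V1 genes gave -0.12 to -0.017 with arrays left out and -0.17 to 0.048 in the other alternatives, with -0.17 under the control covariate and -0.12 with LRC replicate 2 as the 1 LRC array; Lamp genes gave -0.019 to 0.083, with -0.092 after the filter, which removed Lamp5, and -0.059 under the covariate. Signs turned for Atp6v1a (0.031) and Atp6v1c1 (0.017) with renormalization, for Atp6v1c1 with array weights (0.12), for Ctsa with the mean of its probe sets (-0.32) and for Ctsb with its probe set of median level (-0.67). Under the covariate they turned for Ctsa (-0.26), Lamp5 (-0.083), Ctso (0.49) and Atp6v1c1 (0.91), and with LRC replicate 2 alone for Ctsa (-0.31), Lamp5 (-0.036), Ctso (0.067) and Atp6v1c1 (0.62). With single arrays left out, ranges that crossed 0 were those of Ctss (-0.39 to 1.79), Ctsl (-0.90 to 0.14), Ctsg (-0.17 to 1.51), Ctsd (-0.056 to 0.33), Ctsa (-0.046 to 0.23), Lamp5 (-0.019 to 0.15), Lamp1 (-0.0059 to 0.083), Atp6v1a (-0.80 to 0.55), Ctso (-1.66 to 0.28) and Atp6v1c1 (-0.36 to 0.61). The cause of these turns was not tested. For 10 of the 21 the sign held in every alternative, although some alternatives could not change it. The replicate block leaves each difference as it was, and so do other probe set choices for genes with a single probe set. Leaving out an array cannot turn the sign of a gene with separate groups.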
